A study of Mus musculus with 6 samples.

Results

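The 7 genes described here encode the endogenous opioid system: the precursor proteins Penk, Pdyn and Pnoc, and the receptors Oprm1, Oprd1, Oprk1 and Oprl1. They were taken by name from the 49568 gene names of the series, and all 7 had a value in each of 6 samples. A sample held 15 neurons of the preBötzinger Complex (preBötC), the site in the ventral medulla that generates the rhythm of breathing, from a separate mouse at postnatal day 2. All mice carried Dbx1CreERT2 and Rosa26tdTomato, and tamoxifen given to the pregnant dam turned on the red label in cells of the Dbx1 lineage. The 3 Dbx1 samples held tdTomato-positive somata and the 3 non-Dbx1 samples held neighbouring somata without the label. Cells in which Cre did not recombine the reporter carry no label either. Dbx1 itself, a transcription factor of the progenitors, was at 0 RPKM in all 6 samples and so checks neither label.

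Opioid peptides are cut by convertases from larger precursors, at pairs of basic residues, in dense-core vesicles. Their receptors couple to inhibitory G proteins of the Gi/o family, which lower adenylyl cyclase activity, open inwardly rectifying potassium channels and close voltage-gated calcium channels. Enkephalins from Penk act mainly at the δ receptor (Oprd1) and the μ receptor (Oprm1), dynorphins from Pdyn at the κ receptor (Oprk1), and nociceptin from Pnoc at the nociceptin receptor (Oprl1). Opioid drugs slow breathing, and the preBötC is among the places where they act.

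The precursors are told apart by how many opioid cores each carries, so the coding sequence at each opioid core is shown. In GENCODE vM21 on GRCm38 (mm10), all 3 precursor genes lie on the minus strand, and every stretch below is in a coding exon. The 12 capitals mark the core, which reads Tyr-Gly-Gly-Phe in Penk and Pdyn and Phe-Gly-Gly-Phe in Pnoc, with the 6 bases before it and the 9 bases after it in lower case. In Penk there were 7 in-frame cores, 6 followed by a methionine codon, the sequence of Met-enkephalin, and 1 by a leucine codon, the sequence of Leu-enkephalin. In Pdyn there were 3, all followed by leucine, and in Pnoc there was 1. The 2 codons before the core encoded lysine or arginine at 11 of the 11 cores, the kind of residue pair at which precursors are cut. Only the codons before the core were counted. In the Penk stretches chr4:4134067-4134093 and chr4:4133842-4133868, a single arginine codon follows methionine, with serine or phenylalanine next. The number of cores is therefore not a number of released enkephalins. Among 21794 protein-coding genes with an annotated coding sequence, 72 (0.330%) held the Tyr core in frame and 109 (0.5001%) held the Phe core.
Penk chr4:4134328-4134354, Met: aagaagTACGGAGGCTTCatgaaacgg
Penk chr4:4134307-4134333, Met: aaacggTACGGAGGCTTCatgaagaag
Penk chr4:4134220-4134246, Met: aagaggTATGGCGGCTTCatgaagaag
Penk chr4:4134067-4134093, Met: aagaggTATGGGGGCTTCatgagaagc
Penk chr4:4133995-4134021, Met: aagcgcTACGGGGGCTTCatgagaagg
Penk chr4:4133935-4133961, Leu: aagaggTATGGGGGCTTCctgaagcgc
Penk chr4:4133842-4133868, Met: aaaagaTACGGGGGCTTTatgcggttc
Pdyn chr2:129688232-129688258, Leu: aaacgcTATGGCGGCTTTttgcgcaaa
Pdyn chr2:129688124-129688150, Leu: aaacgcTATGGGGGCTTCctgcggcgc
Pdyn chr2:129688067-129688093, Leu: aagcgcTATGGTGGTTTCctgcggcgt
Pnoc chr14:65404872-65404898: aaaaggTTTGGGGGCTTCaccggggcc

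The values are RPKM, reads on a gene divided by its exon length and by the reads on genes in that sample, as deposited, without scaling between samples. Reads on genes ranged from 6464675 to 9432958 per sample and were recovered, as were the reads of each member, from the steps between RPKM values. Neuronal markers summed to 993 to 1708 RPKM over 6 genes in every sample, so the samples were neuronal by this measure, and astrocyte markers summed to 24.5 to 44.9. Slc17a6, the glutamate transporter of excitatory neurons, was at 47.2 to 128 RPKM in Dbx1 and 13.6 to 35.1 in non-Dbx1 samples, while the 4 inhibitory markers overlapped, at 45.7 to 143 against 97.7 to 143. Markers of other cells differed between the groups or stood out in single samples. The 5 erythrocyte markers summed to 90.3 to 507 RPKM in the Dbx1 samples and 733 to 14058 in the non-Dbx1 samples, so every non-Dbx1 sample was higher. The 7 oligodendrocyte-lineage markers summed to 16.4 to 73.6 against 46.5 to 388. Both sums peaked in non-Dbx1 replicate 1. The 4 catecholaminergic markers reached 502 RPKM in non-Dbx1 replicate 2 and at most 3.02 in the Dbx1 samples. The 3 endothelial markers summed to 67.7 RPKM in non-Dbx1 replicate 2 and at most 1.69 in the other samples. Most of that sum was Cldn5 (63.7), with Kdr at 3.98. Pecam1 was at 0.0343 there and highest in Dbx1 replicate 2 (0.507). Of the 3 serotonergic markers, Tph2 was at 3.36 RPKM in Dbx1 replicate 1 and 0 in the other samples. Slc6a4 and Fev were at 0 throughout. The 3 motor neuron markers reached 25.2 RPKM in non-Dbx1 replicate 3, with Isl1 at 13.3 there and 0 in the other 5 samples, and ranged from 0.191 to 12.8 elsewhere. The part of these cells in the results was not tested, and in pools of 15 neurons fewer cells of a type and less RNA per cell cannot be told apart.

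Penk, the enkephalin precursor, was by far the most abundant member. By RPKM it was at 172, 972 and 279 in Dbx1 replicates 1, 2 and 3 and 446, 156 and 201.3 in the non-Dbx1 replicates. The lowest sample was at 156 RPKM, and Dbx1 replicate 2 stood above the others. The reads behind these values were 2975 to 15874 per sample. By mean RPKM Penk ranked 61 of all gene names. The gene (ENSMUSG00000045573) spans chr4:4133531-4138819, and 233 bases of its exons overlap the antisense gene A830012C17Rik, which had 0 to 3.69 RPKM. Without strand, reads on those bases cannot be told apart. The means were 474 ± 434 RPKM in Dbx1 and 268 ± 156 in non-Dbx1 samples (SD, n = 3 each), and the groups overlapped. The difference in log2(RPKM + 1), called L2FC and positive where Dbx1 samples were higher, was 0.58 (SE 0.63, 95% interval -0.87 to 2.03, limma FDR 0.958). Without Dbx1 replicate 2 it was -0.14.

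Pdyn, the dynorphin precursor, had its highest value in a Dbx1 sample and its lowest values in non-Dbx1 samples. The Dbx1 replicates held 22.4, 3.33 and 5.94 RPKM, from 570, 80 and 132 reads. The non-Dbx1 replicates held 0.145, 0.220 and 4.55 RPKM, from 3, 6 and 137 reads. The groups overlapped because non-Dbx1 replicate 3 exceeded Dbx1 replicate 2. The 3 and 6 reads lie at or close to the floor of 3 reads taken here as detection. The group means were 10.6 ± 10.4 and 1.64 ± 2.52 RPKM (SD, n = 3 each), and the L2FC was 2.17 (SE 0.87, 95% interval 0.19 to 4.15), with an unadjusted limma p of 0.0352 and an FDR of 0.912. The exact two-sided permutation test gave p = 0.20, where 3 samples against 3 cannot go below 0.10. With a pseudocount of 0.1 the L2FC was 3.44. The unadjusted limma p no longer passed 0.05 without Dbx1 replicate 1 (L2FC 1.47, limma FDR 0.920), Dbx1 replicate 3, non-Dbx1 replicate 1 or non-Dbx1 replicate 2, nor with voom on recovered reads, where it lay between 0.0596 and 0.140. The gene (ENSMUSG00000027400) spans chr2:129686565-129699844. Dbx1 replicate 1, which held the highest Pdyn, had Evx1 at 0, but so had the 3 non-Dbx1 samples. Dbx1 replicate 1 was the only sample with Tph2 (3.36 RPKM), while the other serotonergic markers, Slc6a4 and Fev, were at 0 there too. The part of the cell make-up of that sample in the Pdyn value was not tested.

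Pnoc, the precursor of nociceptin, had reads in every sample, but from 1 to 790. Its RPKM was 11.3, 0.123 and 1.27 in the Dbx1 replicates and 0.0717, 42.8 and 25.4 in the non-Dbx1 replicates, from 194, 2, 19, 1, 790 and 517 reads. Non-Dbx1 replicates 2 and 3 were the highest of all samples and non-Dbx1 replicate 1 the lowest, so the groups overlapped fully. Between the highest and the lowest sample the ratio was 597, but the lowest rests on 1 read. The means were 4.23 ± 6.16 in Dbx1 and 22.8 ± 21.5 RPKM in non-Dbx1 samples (SD, n = 3 each), with an L2FC of -1.77 (SE 1.42, 95% interval -5.01 to 1.47, limma FDR 0.949). Leaving out non-Dbx1 replicate 1 gave -3.43, and leaving out non-Dbx1 replicate 2 gave -0.75. Pnoc (ENSMUSG00000045731) spans chr14:65400673-65425472. Non-Dbx1 replicate 1, where Pnoc had 1 read, Pdyn 3 and Oprk1 1, is the sample with the highest erythrocyte and oligodendrocyte sums, while Penk was at 446 RPKM there. The samples with the highest Pnoc also stood apart in other markers. Non-Dbx1 replicate 2 had the highest catecholaminergic (502 RPKM) and endothelial (67.7, of which Cldn5 held 63.7) sums. Non-Dbx1 replicate 3 had the highest motor neuron sum (25.2, of which Isl1 held 13.3). The part of these cells in the low and high values was not tested.

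Within single samples the precursors summed to 199 to 975 RPKM, and Penk made up 78.4% to 99.95% of that sum. Its share was lowest in non-Dbx1 replicate 2, where Pnoc held 21.5%, and in Dbx1 replicate 1, where Pdyn held 10.9%. Penk was therefore the leading opioid precursor in both groups.

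**Figure D1:**
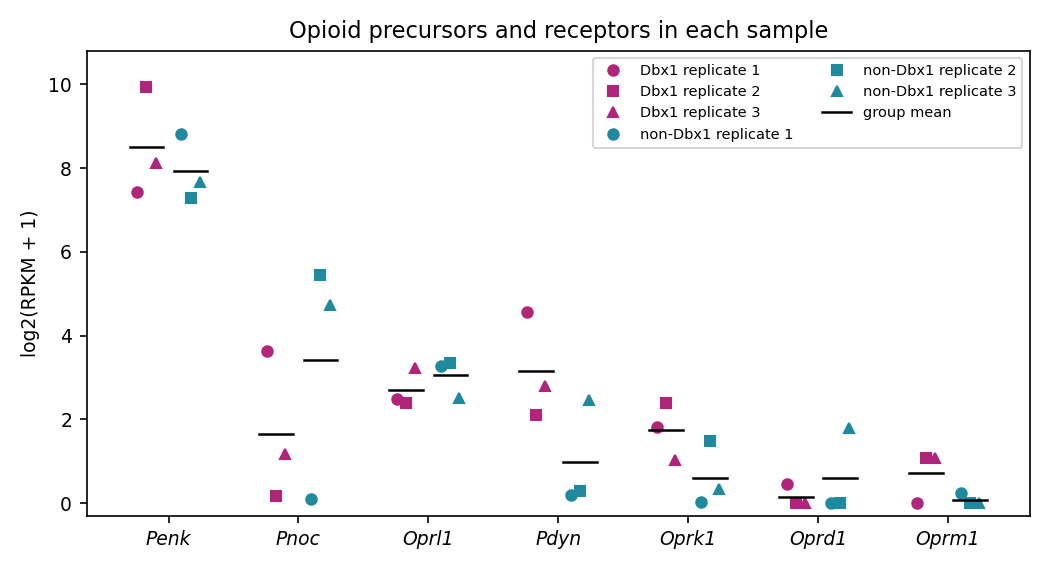
log2(RPKM + 1) of the 7 genes in each of the 6 samples, with Dbx1 in magenta and non-Dbx1 in blue-green, a marker shape for each replicate number and a black line at the group mean. Penk lies above the other genes in every sample, and in all 7 genes the groups overlap.

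Among the receptors, Oprl1, which binds nociceptin, had reads in all 6 samples and the smallest relative spread of the 7 members. Its RPKM was 4.64, 4.24 and 8.40 in the Dbx1 replicates and 8.71, 9.23 and 4.73 in the non-Dbx1 replicates, from 652 to 1613 reads. The highest sample was 2.18 times the lowest, and the coefficient of variation over 6 samples was 35.2%. Dbx1 replicate 3 lay with the 2 higher non-Dbx1 samples, and non-Dbx1 replicate 3 with the 2 lower Dbx1 samples. The L2FC was -0.34 (SE 0.45, 95% interval -1.37 to 0.68, limma FDR 0.960). Oprl1 (ENSMUSG00000027584) spans chr2:181715016-181720985 on the plus strand.

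Oprk1, the κ receptor for dynorphins, was higher in the Dbx1 samples on average but overlapped between groups. The Dbx1 replicates were at 2.54, 4.22 and 1.06 RPKM, from 283, 445 and 103 reads. The non-Dbx1 replicates were at 0.0110, 1.80 and 0.257 RPKM, from 1, 216 and 34 reads. Non-Dbx1 replicate 2 exceeded Dbx1 replicate 3, while the single read of non-Dbx1 replicate 1 is below the detection floor. The means were 2.61 ± 1.58 and 0.691 ± 0.971 RPKM (SD, n = 3 each), and the L2FC was 1.14 (SE 0.61, 95% interval -0.24 to 2.52, limma FDR 0.924). With a pseudocount of 0.1 it was 2.48. Oprk1 (ENSMUSG00000025905) spans chr1:5588466-5606131 on the plus strand.

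Oprm1, the μ receptor at which morphine-like drugs act, had reads in 3 samples. Dbx1 replicates 2 and 3 were at 1.10 and 1.11 RPKM, from 145 and 135 reads, and non-Dbx1 replicate 1 was at 0.177 RPKM from 20 reads. The other 3 samples had 0 reads, and 3 reads would have been 0.0216 RPKM in Dbx1 replicate 1. Dbx1 replicate 1 thus shared its value of 0 with non-Dbx1 replicates 2 and 3. The L2FC was 0.64 (SE 0.33, 95% interval -0.11 to 1.39, limma FDR 0.917), and 1.91 with a pseudocount of 0.1. Oprm1 (ENSMUSG00000000766) spans chr10:6758506-7038198 on the plus strand, with 31 annotated transcripts, and shares 96 exonic bases with Ipcef1 on the other strand.

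Oprd1, the δ receptor for enkephalins, was the scarcest by number of samples. It had 12 reads in Dbx1 replicate 1 (0.375 RPKM) and 93 reads in non-Dbx1 replicate 3 (2.45 RPKM), and 0 reads in the other 4 samples. It was too rarely above 0 for the limma test, and the difference in log2(RPKM + 1) was -0.44 (exact two-sided permutation p = 1.0). Leaving out non-Dbx1 replicate 3 turned that difference to 0.15. That replicate also had the highest motor neuron sum, 25.2 RPKM, of which Isl1 held 13.3. Slc5a7, of the same list, was at 7.91 there but at 10.9 in non-Dbx1 replicate 2 and 8.52 in Dbx1 replicate 3, both without Oprd1 reads. The part of motor neurons in the Oprd1 value was not tested. The samples with Oprd1 reads had no Oprm1 reads, and non-Dbx1 replicate 2 had neither. Oprd1 (ENSMUSG00000050511) spans chr4:132110726-132144486 on the minus strand and has 1 annotated transcript.

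Of the 7 members, 6 entered the limma test, and 0 had an FDR under 0.1, where 1 of 17614 tested genes did (0.00568%). At an unadjusted limma p under 0.05 there was 1 member, Pdyn, against 5.2% of all genes in either direction and 2.73% with higher values in Dbx1. In 0 of the 7 members did the groups not overlap, against 10.6% of all genes tested. The L2FC was above 0 in 4 of the 6 tested members, beside 8953 of all 17614 tested genes, and 1 of the 4, Penk, turned to -0.14 without Dbx1 replicate 2. The median L2FC was 0.61, beside 0.01 over all tested genes. The order of the L2FC values depends on the scale: with a pseudocount of 1 they were 2.17 for Pdyn, 1.14 for Oprk1 and 0.64 for Oprm1, while the log2 ratios of the group mean RPKM were 2.69, 1.92 and 3.64.

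**Figure D2:**
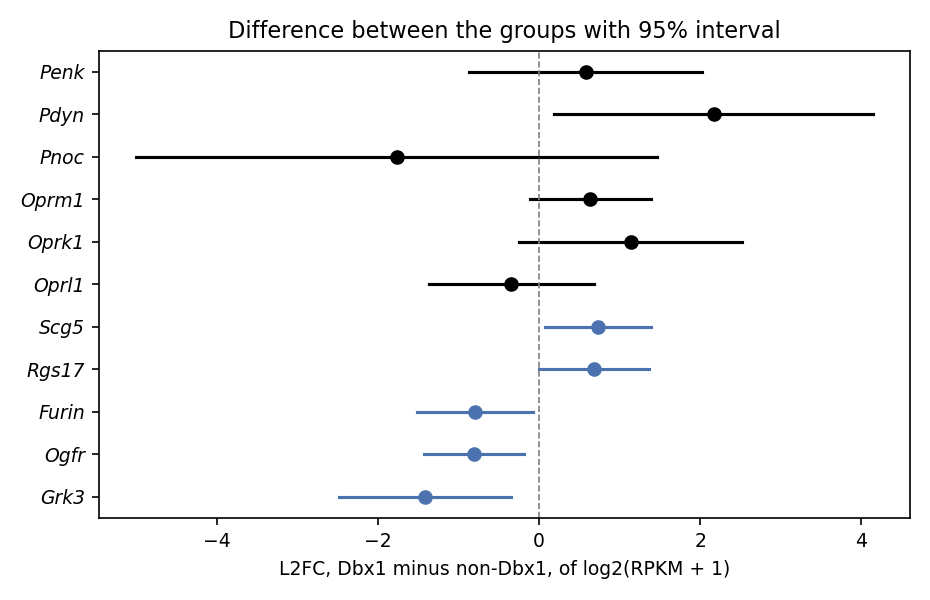
L2FC of the 6 tested members (black) and of the 5 pathway genes with an unadjusted limma p under 0.05 (blue), with 95% intervals and a dashed line at 0. Of the members, the interval of Pdyn lies above 0, from 0.19 to 4.15, while the other 5 include 0.

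Ordered by mean RPKM over the 6 samples, the members ran from Penk (371), Pnoc (13.5), Oprl1 (6.66), Pdyn (6.11) and Oprk1 (1.65) to Oprd1 (0.471) and Oprm1 (0.399). Each gene was compared with its neighbour in this order, within samples, by an exact two-sided test of sign changes. The smallest p of that test over 6 samples is 0.03125, and p-values were adjusted over the 6 pairs. The order came from the same values, so the pairs tested were set by these data. Penk was above Pnoc in 6 of 6 samples, by 5.67 on the log2 scale (exact p = 0.03125, adjusted 0.1875). Pnoc and Oprl1 (-0.34, exact p = 0.8125), and Oprd1 and Oprm1 (-0.02, exact p = 1), did not differ beyond their spread, and each came first in some samples. Oprl1 against Pdyn (0.81), Pdyn against Oprk1 (0.89) and Oprk1 against Oprd1 (0.81) had the first gene higher in 5, 4 and 5 of 6 samples, with adjusted exact p = 0.42 for each.

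The order of the receptors depends on the exon length used. For 6 of the 7 members the length in the deposited RPKM equalled the summed length of all annotated exon entries, in which stretches shared by several transcripts are counted repeatedly. The exception was Pnoc, whose length in the deposited RPKM, 2157 bases, equalled its merged exons, while its exon entries in GENCODE vM21 sum to 3395. The summed entries of that release gave the deposited length for 79.6% of 17060 genes. As the release behind the deposited values is not given, whether Pnoc and Oprl1 are on different length bases cannot be told. For Oprl1, with 11 annotated transcripts, this gave 20430 bases, while its exons merged into distinct bases cover 3753, so that its RPKM was 5.44 times lower than on merged exons. Only 1 of 17060 genes had a larger ratio, and the median was 1.23. The ratio was 2.17 for Oprm1, 1.53 for Oprk1, 1.33 for Penk, 1.11 for Pdyn and 1 for Oprd1 and Pnoc. A gene's length is the same in every sample, so it scales both groups alike, but it changes the weight of the pseudocount.

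On merged exon length Oprl1 was at 25.3, 23.1 and 45.7 RPKM in the Dbx1 replicates and at 47.4, 50.2 and 25.8 in the non-Dbx1 replicates, with a mean of 36.2 ± 12.8 (SD, n = 6), which placed it after Penk (493) and before Pnoc (13.5). Penk was above Oprl1 in 6 of 6 samples by 3.47 on the log2 scale, and Oprl1 above Pnoc in 6 of 6 by 2.60 (exact p = 0.03125, adjusted 0.094 for each). These pairs, too, follow an order taken from the same samples. Pdyn was at 6.75, Oprk1 at 2.52, Oprm1 at 0.866 and Oprd1 at 0.471. Oprl1 was the highest receptor in all 6 samples on both lengths. It held 44.3% to 97.9% of the receptor RPKM as deposited and 72.3% to 99.2% on merged exons, a length chosen after seeing the data, with the lowest share in Dbx1 replicate 2 both times. In Dbx1 replicate 2, on the deposited length, Oprl1 (4.24) and Oprk1 (4.22) were nearly equal. The other 3 receptors together had 295, 590 and 238 reads in the Dbx1 replicates and 21, 216 and 127 in the non-Dbx1 replicates.

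**Figure D3:**
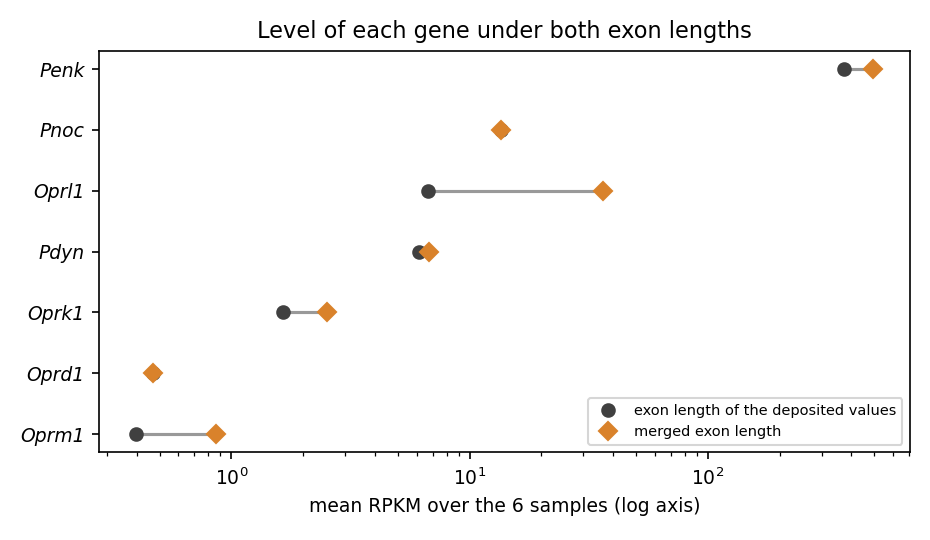
Mean RPKM of each member over the 6 samples on a log axis, with the exon length of the deposited values (dark circles) and with merged exons (orange diamonds). Oprl1 moves most, from 6.66 to 36.2, while Oprd1 and Pnoc do not move.

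**Figure D4:**
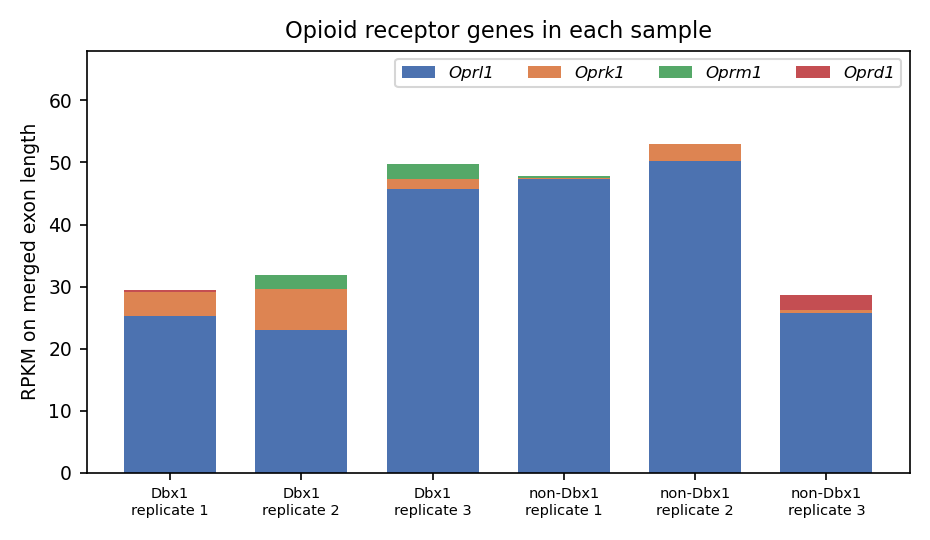
Stacked bars of RPKM on merged exon length for the 4 receptor genes in each of the 6 samples. The Oprl1 segment, 23.1 to 50.2 RPKM, is the largest in every sample, and the Oprk1 segment is largest in Dbx1 replicate 2.

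Among 25 neuropeptide precursors, Penk ranked 3 by mean RPKM and 2 by median, after Sst, and within single samples between 1 and 4. Pnoc ranked 8 by mean and 9 by median, and Pdyn 11 and 10. Within samples Pnoc took ranks from 5 to 18 and Pdyn from 5 to 17. Pomc, the precursor of β-endorphin, had a mean of 2.00 RPKM and was at 0 in non-Dbx1 replicate 3.

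**Figure D5:**
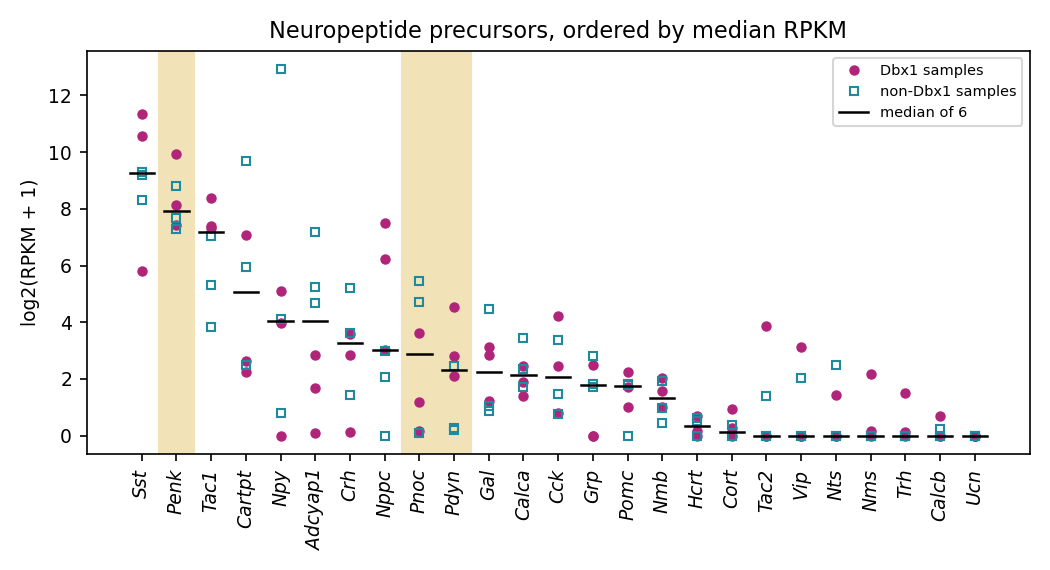
log2(RPKM + 1) of 25 neuropeptide precursors ordered by their median RPKM, with Dbx1 samples as filled circles, non-Dbx1 samples as open squares, a black line at the median of 6 and the 3 opioid precursors shaded. Penk sits in place 2, at 156 to 972 RPKM, and Pdyn and Pnoc spread over more than 2 orders of magnitude.

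The genes around the opioid system were counted from lists covering 51 genes, of which 47 could be tested. At an FDR under 0.1 there were 0, and at an unadjusted limma p under 0.05 there were 5 (10.6%, against 5.2% of all genes), 2 higher and 3 lower in Dbx1 samples. That count fell to 1 without non-Dbx1 replicate 2 and to 2 without Dbx1 replicate 2. The median L2FC was 0.04. The 5 genes were chosen by that p, and the lowest FDR among them was 0.870.

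For receptors beyond the members, Ogfr, which binds Met-enkephalin as a growth factor receptor, was at 30.7, 28.5 and 44.1 RPKM in Dbx1 and 53.3, 76.6 and 52.8 in non-Dbx1 samples (L2FC -0.81, SE 0.27, limma FDR 0.874). Among the 6 processing genes, Scg5, the chaperone of the convertase Pcsk2, was at 397, 467 and 389 against 179, 248 and 352 RPKM (L2FC 0.73, SE 0.29, limma FDR 0.912). Furin, a convertase of the constitutive pathway, was at 0.0156, 0.206 and 0.428 against 0.978, 0.927 and 1.42 RPKM (L2FC -0.80, limma FDR 0.912).

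Downstream of the receptors, Grk3, a kinase that marks activated receptors for arrestin, was at 1.84, 4.55 and 3.84 RPKM in Dbx1 and 11.7, 13.5 and 6.87 in non-Dbx1 samples (L2FC -1.42, SE 0.47, limma FDR 0.870). Rgs17, which speeds the turning off of Gi/o proteins, was at 18.7, 17.8 and 14.7 against 10.1, 8.62 and 12.2 RPKM (L2FC 0.68, limma FDR 0.912). The remaining highest-expressed gene of each list did not pass the unadjusted threshold: Dpp3, an enkephalin-degrading peptidase (53.2 RPKM), Gnai1 (78.6), Cacna1b, the N-type calcium channel (9.95), Adcy2 (35.9), Rgs4 (41.3) and Gprin1 (21.5). Of the inwardly rectifying potassium channels that opioid receptors open, Kcnj5 was at 0 in all 6 samples, and the means of Kcnj3, Kcnj9 and Kcnj6 were 1.04, 1.35 and 0.272 RPKM.

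The genes whose pattern over the 6 samples was most like that of each member with reads in all samples are given as a description, by Pearson r of log2(RPKM + 1) among 8026 or 8027 genes with at least 1 RPKM in every sample. The points share library and depth, and with 6 points many genes reach such an r. Penk came closest to Cntnap1 (r = 0.99) and 11 genes had r above 0.95, Pdyn to 1110008P14Rik (0.99) with 20 genes, and Pnoc to Tmem176b (0.99) with 28. For Oprk1 it was Rit1 (0.98) with 16 genes, and for Oprl1 Ube2q1 (0.99) with 22.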

How the data were processed

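Neurons were collected by micropipette, 15 per sample, and full-length complementary DNA was amplified and sequenced (3 Dbx1 and 3 non-Dbx1 samples). Reads were aligned by the authors to mm10 (TopHat2) and assigned to genes by HTSeq without strand, and the authors deposited RPKM per gene name, not scaled between samples. Numbers of reads were recovered from the steps between RPKM values for 27060 of 27067 genes and used for the reads given, the floor of 3 reads and an alternative fit with voom. They cover counting error only. Annotation and sequences came from GENCODE vM21 (GRCm38), matching 47287 names. The annotation release of the deposited values is not given in the sources used here.

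As the deposited unit is RPKM, the main test was made on log2(RPKM + 1) with limma 3.58.1 (R 4.3.3; lmFit, eBayes with a trend) for the 17614 genes that had a value above 0 in 3 or more samples (two-sided). P-values were adjusted by Benjamini-Hochberg, and 0.1 was the FDR threshold. Exact permutation tests enumerated every arrangement with numpy 2.4.6 in Python 3.11.15. Members, lists and tests were chosen with earlier results of these data known. Pathway genes named are those with an unadjusted p under 0.05 and the highest of each list, with the effector potassium channels added after their values were seen. P-values measure the spread between these samples, each from a separate mouse.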

Additional observations from a re-analysis of the deposited data

How the results depend on the processing

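The number of genes with an FDR under 0.1 and higher values in non-Dbx1 samples was 1, and became 0 with a pseudocount of 0.1, with every gene above 0 in at least 1 sample, with the replicate block and with voom on recovered reads, and 3 in limma without the trend. Without single samples it ran from 0 to 1, as did the number higher in Dbx1 samples (0 with all samples, 1 without non-Dbx1 replicate 2). Same-numbered samples did not deviate together (correlations -0.11, 0.02 and -0.05), and the numbers are used here only to name samples. The labels do not say whether same-numbered samples were handled together, which these correlations do not settle. The replicate block moved no member past the threshold.

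The L2FC of Penk reversed to -0.14 without Dbx1 replicate 2 (range without single samples -0.14 to 1.11). The other 5 tested members kept their direction in every alternative, with ranges 0.82 to 3.33 (Oprk1), -0.61 to -0.19 (Oprl1), 0.46 to 3.64 (Oprm1), 1.47 to 3.64 (Pdyn) and -3.43 to -0.75 (Pnoc), and FDR values from 0.746 to 0.9996. The Oprd1 difference was -2.71 as log2 of the ratio of mean RPKM and -0.74 to 0.15 without single samples. It could not be fitted with voom. By median, Oprl1 ranked 2, Pnoc 3, Oprm1 6 and Oprd1 7, the same places as on merged exon length, which was chosen after seeing the data. Over Dbx1 samples alone Pdyn ranked 2, Pnoc 4, Oprm1 6 and Oprd1 7, and over non-Dbx1 samples Oprd1 5 and Oprk1 6. Pnoc minus Oprl1 ranged from -0.85 to 0.23 without single samples, turning to 0.04, 0.0055 and 0.23 without Dbx1 replicates 2 and 3 and non-Dbx1 replicate 1. Oprd1 minus Oprm1 ranged from -0.39 to 0.19, at 0.19, 0.19 and 0.02 without the same samples. The 5 pathway genes became 1 to 6 (2 without Dbx1 replicate 2, 1 without non-Dbx1 replicate 2). The cause was not tested. With 5 samples the exact test cannot go below 0.0625.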
